A study of Mus musculus with 19 samples.

Results

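The Schlafen genes are a mouse gene family that lies in 1 cluster on chromosome 11, and 7 of its members (Slfn1, Slfn2, Slfn3, Slfn4, Slfn5, Slfn8 and Slfn9) were followed here among 19752 measured genes. Each had exactly 1 probe set with a single gene symbol in the array annotation, so no choice between probe sets was needed. The probe sets were 10379633 for Slfn1, 10379630 for Slfn2, 10379646 for Slfn3, 10379636 for Slfn4, 10379615 for Slfn5, 10389143 for Slfn8 and 10389134 for Slfn9. The family was chosen by name, after Slfn5 had been noted as lower with the JAK1 than with the JAK3 inhibitor in these same samples. The values that selected it were the Slfn5 intensities under the inhibitors. That difference, and the difference of Slfn5 from IL-2 under either inhibitor, are therefore given as values with no test.

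The samples were natural killer (NK) cells from the spleens of male C57BL/6 mice aged 6 weeks, prepared by negative selection with NK1.1 as the phenotype marker. No genetic change is stated for the mice. In all, 19 samples fell into 9 groups, each sample on 1 expression array. The untreated group had 3 samples without IL-2, and the IL-2 group had 4 samples cultured for 8 h with IL-2 at 250 U/ml and no inhibitor. The remaining groups received the same IL-2 with an inhibitor labelled by its target. The JAK3 inhibitor was given at 0.25, 1 and 4 µM (2 samples each), and the JAK1 inhibitor at 0.25 and 1 µM (2 samples each) and at 0.0625 and 4 µM (1 sample each). The inhibitors carry only code numbers, so nothing is said of their structures. A culture time is stated for 2 of the 3 untreated samples. The labels do not state whether replicates are different mice or different cultures, so every p-value here is read against a spread that may be no more than technical.

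Schlafen proteins share an N-terminal Schlafen core domain, and the longer members, among them Slfn5, Slfn8 and Slfn9, also carry a helicase-like C-terminal part. Slfn2 is known for keeping T cells and monocytes quiescent, Slfn1 is known for slowing T-cell growth when overexpressed, and Slfn4 is best known from myeloid cells. Several members are interferon-stimulated genes. Type I interferon signals through JAK1 and TYK2, and its target genes often carry the interferon-stimulated response element (ISRE). IL-2 signals through JAK1 and JAK3 to STAT5, which binds the GAS element, and NK cells answer IL-2 with interferon gamma, which signals through JAK1 and JAK2.

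Promoter windows from RefSeq (build GRCm38.p6; 250 bases before to 50 after the start of transcription, 300 bases in all) were found for all 7 genes, with a pair of start sites for Slfn8. The upstream 250 bases are shown for Slfn5 and for the 3 other members with the largest IL-2 response, so that motif content can be read beside the response. Capitals mark the ISRE core, searched as GAAA, NN and GAAA in a row, and as TTTC, NN and TTTC for the other strand (N is any base). The lower-case run of Slfn1 holds no match.

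Slfn5 (chr11:82951852-82952101, + strand): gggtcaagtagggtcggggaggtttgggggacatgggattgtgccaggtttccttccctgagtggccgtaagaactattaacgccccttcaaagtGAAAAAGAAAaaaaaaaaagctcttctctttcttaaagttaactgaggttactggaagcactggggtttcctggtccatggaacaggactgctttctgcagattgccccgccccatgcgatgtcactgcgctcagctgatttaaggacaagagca
Slfn8 (chr11:83020811-83021060, - strand): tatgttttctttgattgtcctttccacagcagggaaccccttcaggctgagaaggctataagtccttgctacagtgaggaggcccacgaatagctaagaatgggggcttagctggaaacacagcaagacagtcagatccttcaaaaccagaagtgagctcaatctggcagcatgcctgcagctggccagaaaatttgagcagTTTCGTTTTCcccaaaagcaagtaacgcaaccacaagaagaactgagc
Slfn9 (chr11:82991831-82992080, - strand): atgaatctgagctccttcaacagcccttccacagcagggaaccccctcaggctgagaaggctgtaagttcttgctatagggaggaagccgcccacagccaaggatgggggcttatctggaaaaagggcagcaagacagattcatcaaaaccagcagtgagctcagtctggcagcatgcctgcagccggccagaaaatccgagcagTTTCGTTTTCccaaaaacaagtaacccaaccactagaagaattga
Slfn1 (chr11:83116570-83116819, + strand): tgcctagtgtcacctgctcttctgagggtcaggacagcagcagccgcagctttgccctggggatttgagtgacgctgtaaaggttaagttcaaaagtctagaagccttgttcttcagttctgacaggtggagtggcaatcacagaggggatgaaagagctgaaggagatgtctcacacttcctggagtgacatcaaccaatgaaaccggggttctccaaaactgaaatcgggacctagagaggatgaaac

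The ISRE core was found in the windows of 3 of the 7 genes. Counted from the start of transcription, it began at -155 in Slfn5, at -48 from the first and -136 from the second start site of Slfn8, and at -45 in Slfn9, and the Slfn8 and Slfn9 windows carried the same letters, TTTCGTTTTC. In Slfn5 the match GAAAAAGAAA runs into a stretch of A. The windows of Slfn1, Slfn2, Slfn3 and Slfn4 held no match in these 300 bases. For comparison, 3.44% of all 32851 windows of this length held the ISRE core. The GAS pattern TTCNNNGAA, which reads the same on both strands, was found in none of the 8 Schlafen windows and in 8.3% of all windows. Aligned over the whole window, Slfn8 and Slfn9 were 80.8% identical, while the other pairs of members lay between 46.5% and 53%. A match is only a run of letters, and no binding was measured.

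**Figure D1:**
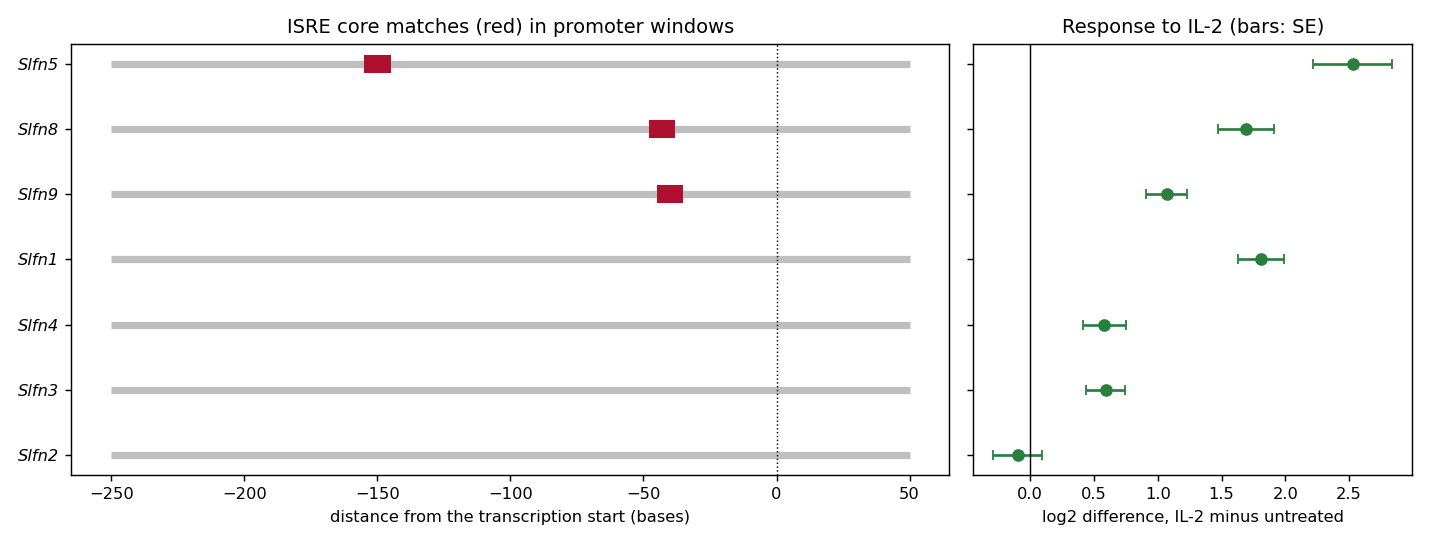
Position of the ISRE core (red) in the promoter window of each gene, in bases from the start of transcription (left), beside the log2 difference of IL-2 minus untreated with its standard error (right). Slfn5, Slfn8 and Slfn9 hold the motif, with differences of 2.53, 1.69 and 1.07, while Slfn1 holds none and differed by 1.81.

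The deposited intensities lie on 2 scales, and this shapes every value below. The high-intensity set holds 7 samples with log2 medians from 7.49 to 7.59, and the low-intensity set holds 12 with medians from 5.7 to 5.9. No label says what separates the sets. Levels are given as log2 intensity after removing a fitted set difference for each gene, which was 1.47 to 2.48 for the 7 members, and they are not compared between genes. Samples of a group correlated at 0.962 to 0.994 over all genes. Calls are from limma, with Benjamini-Hochberg adjusted p under 0.05 over all 19752 genes.

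IL-2 alone raised 6 of the 7 Schlafen genes above untreated cells. The rise was largest for Slfn5, followed by Slfn1 and Slfn8, then Slfn9, and smallest for Slfn3 and Slfn4, while Slfn2 was not called. By comparison, 6.56% of all genes were called higher with IL-2. The median difference over the 7 members was 1.07 on the log2 scale, beside -0.01 over all genes.

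Slfn5 stood at 6.59, 5.36 and 5.35 in the untreated samples and at 7.81, 8.02, 8.96 and 8.40 in the IL-2 samples (set-adjusted log2). Every IL-2 sample was above every untreated one, and the high untreated value belongs to replicate 2, the sample with no stated culture time. The difference was 2.53 ± 0.31 (log2, SE), a 5.78-fold rise, with a limma adjusted p of 8.36e-06. It was 3.33 within the low-intensity set (limma adjusted p = 5.55e-05) and 1.32 within the high-intensity set (adjusted p = 0.757), where the only untreated sample is replicate 2.

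Slfn8 read 7.91, 6.93 and 7.49 in the untreated samples and 8.93, 8.94, 9.58 and 9.07 with IL-2, with no overlap. It rose 3.22-fold (log2 difference 1.69 ± 0.22 SE, limma adjusted p = 1.83e-05). Slfn9, its neighbour in the cluster, read 6.11, 5.88 and 5.45 untreated and 6.70, 6.77, 7.27 and 6.77 with IL-2. It rose 2.09-fold (1.07 ± 0.16 SE, limma adjusted p = 0.00013). Both are close paralogs with each other and with the pseudogene Slfn10-ps, which rose by 1.12 ± 0.19 (limma adjusted p = 0.000494), so signal shared between their probe sets cannot be set apart here.

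Slfn1, which has no ISRE core in its window, read 7.19, 6.58 and 6.95 in the untreated samples and 8.55, 8.60, 9.12 and 8.61 with IL-2. The groups were far apart, and the rise was 3.52-fold (1.81 ± 0.18 SE, limma adjusted p = 8.14e-07), the smallest p of the family. Within the sets the difference was 2.10 in the low and 1.38 in the high set for Slfn1, 2.12 and 1.02 for Slfn8, and 1.35 and 0.63 for Slfn9. In the high set alone, a single pair of IL-2 replicates supplies the spread.

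Slfn3 and Slfn4, themselves close paralogs whose probe sets may share signal, rose less. Slfn3 read 6.22, 5.73 and 5.90 untreated and 6.38, 6.58, 6.74 and 6.45 with IL-2, a difference of 0.59 ± 0.15 (SE, limma adjusted p = 0.0145). Slfn4 read 6.15, 5.41 and 5.78 untreated and 6.18, 6.56, 6.46 and 6.24 with IL-2, a difference of 0.58 ± 0.17 (SE, limma adjusted p = 0.0375). In both genes the groups did not overlap, but untreated replicate 2 came close to the lowest IL-2 sample. Within the low-intensity set the difference was 0.78 for Slfn3 (limma adjusted p = 0.0456) and 0.76 for Slfn4 (0.0557), and within the high set 0.26 (0.777) and 0.22 (0.866). Both calls ended with each array centred on its median and no set term (limma adjusted p = 0.0599 and 0.384) and with only the compared groups fitted (0.0578 and 0.102). The Slfn3 call ended without untreated replicate 3 or 4 or IL-2 replicate 3 (limma adjusted p = 0.0738, 0.0607 and 0.0851). The Slfn4 call ended without untreated replicate 3 or 4 (0.226 and 0.0975) or IL-2 replicate 2, 3 or 4 (0.117, 0.13 and 0.0617).

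Slfn2, the quiescence gene, behaved apart from the rest. It read 9.30, 8.90 and 8.69 in the untreated samples and 8.38, 8.96, 9.03 and 9.05 with IL-2, so the groups overlapped. The difference was -0.10 ± 0.19 (SE, limma adjusted p = 0.852), with 0.25 in the low and -0.63 in the high set. Of the other quiescence genes fixed as a list, 4 of 13 measured fell with IL-2 and none rose, beside 2.59% of all genes called lower.

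Of the relatives measured, the pseudogene Slfn10-ps rose, as given above, and Slfnl1 and Slfn5os were not called. The Schlafen-like gene Slfnl1 differed by -0.22 ± 0.16 (SE, limma adjusted p = 0.503), and Slfn5os, the transcript on the opposite strand of Slfn5, by 0.13 ± 0.14 (adjusted p = 0.724). The 3 nearest measured protein-coding genes on the Slfn5 side (Fndc8, Nle1 and Unc45b) and on the Slfn3 side (Ap2b1, Rasl10b and Gas2l2) were not called either, with differences from -0.15 to 0.46.

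**Figure D2:**
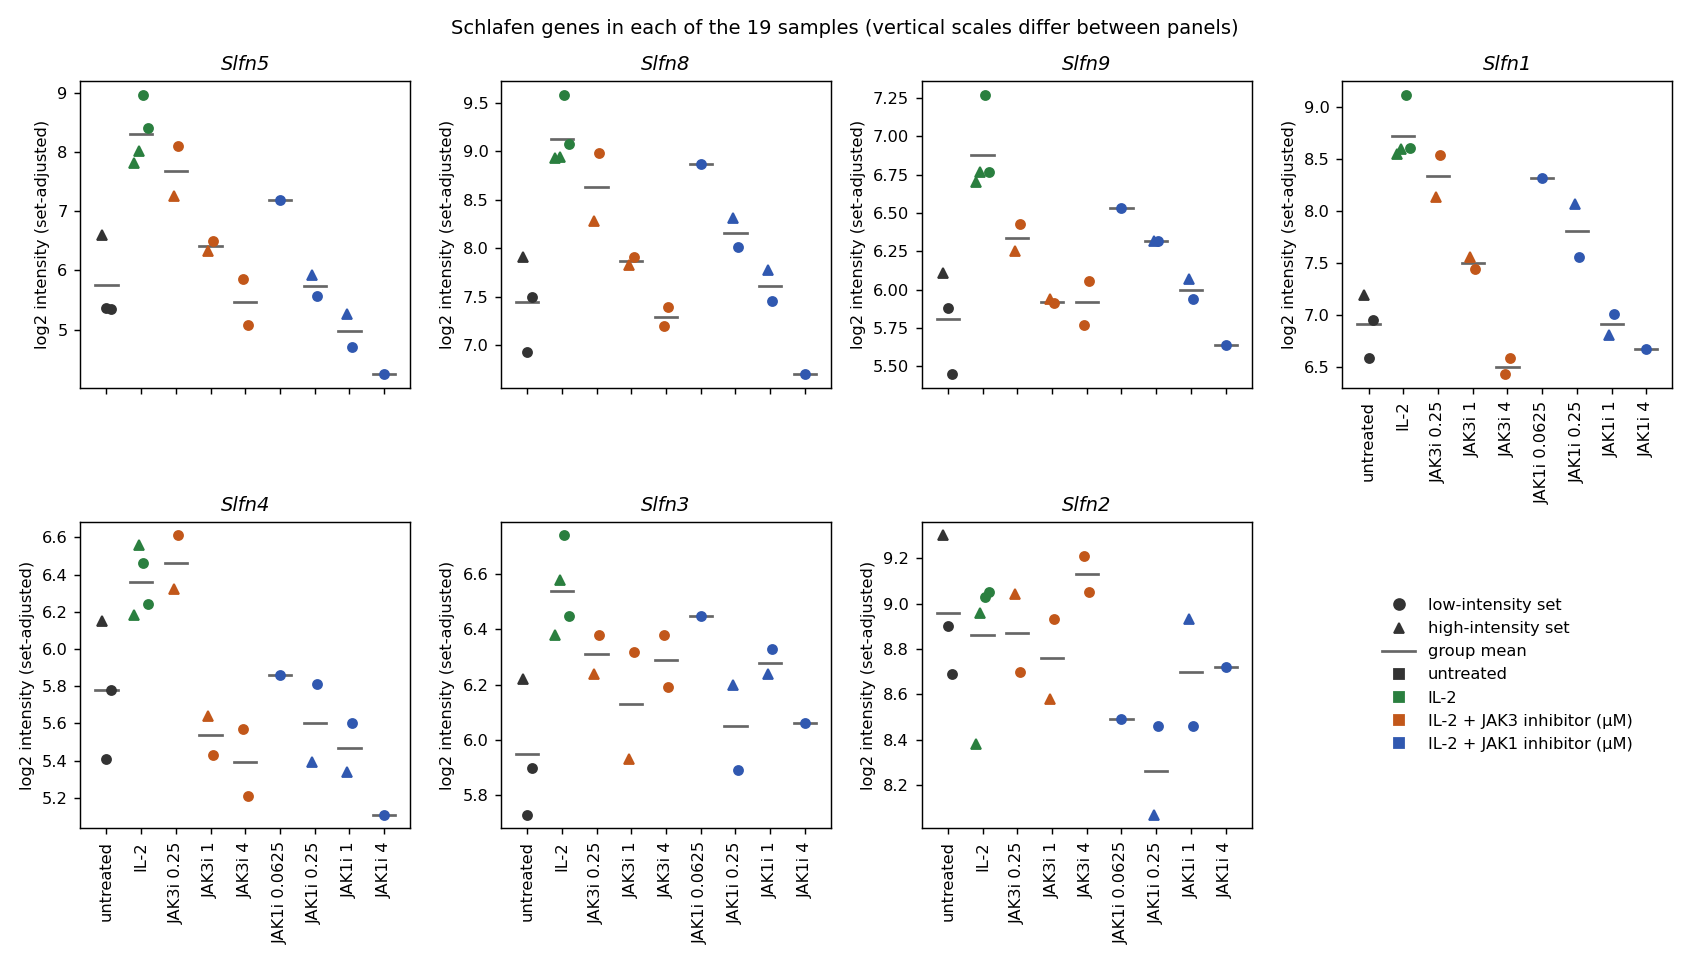
Set-adjusted log2 intensity of the 7 Schlafen genes in each of the 19 samples, by treatment group (points, with circles for the low- and triangles for the high-intensity set; lines are group means). For Slfn5, the IL-2 samples lie between 7.81 and 8.96 and the JAK1 inhibitor sample at 4 µM at 4.25, while the Slfn2 groups overlap.

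Other cell types moved with the treatments in these bulk samples, where fewer cells of a type and less RNA per cell cannot be told apart. The mean over 13 macrophage and monocyte markers was 7.12 to 7.36 in the untreated and 6.17 to 6.45 in the IL-2 samples, with 6 called lower and 1 higher. The mean over 13 neutrophil markers was 8.08 to 8.47 and 7.38 to 7.62, with 7 called lower, and that over 9 B cell markers was 8.89 to 9.18 and 8.52 to 8.71, with 3 lower. Of 11 T cell markers none was called, and 8 of 10 NK cell markers rose (mean 8.04 to 8.29 untreated, 9.32 to 9.68 with IL-2). The NK list includes effector genes such as Prf1. Without detection values, no marker could be called present or absent. With IL-2 against untreated, the macrophage, neutrophil and B cell means moved opposite to the 6 Schlafen genes that rose, and the NK mean moved with them. The part of these cell types in the results was not tested.

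Genes of the interferon and IL-2 pathways, in lists chosen with earlier results of these data known, moved beside the family. IL-2 raised 30 of the 30 measured genes on the list of type I interferon-stimulated genes (median 1.90 on the log2 scale), among them the antiviral genes Zbp1 (3.13 ± 0.27 SE) and Mx1 (1.93 ± 0.19). Of 18 IL-2 and STAT5 targets 17 rose (median 2.18), led by the feedback inhibitor Socs1 (3.01 ± 0.14). Of 14 interferon ligand genes, 1 rose, Ifng (3.78 ± 0.17). Among 11 receptor and signalling genes, Irf1 (1.69 ± 0.20), Irf7, Stat2 and Irf9 rose and the receptor chain Ifngr2 fell (-0.85 ± 0.16).

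The inhibitor groups are each compared with the same 4 IL-2 samples, so the differences below share their control. Over the 7 doses, 6 members were tested and Slfn5 was described.

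At the lowest JAK3 inhibitor dose, 0.25 µM, limma called 0 of 6 members. An unadjusted p under 0.05 was reached by 1 of 6 (Slfn9, -0.53 ± 0.18 SE) and by 2569 of the 19752 genes, and 2.26% of all genes were called lower and 2.74% higher. The remaining share of the IL-2 difference was 79.1% for Slfn1, 75.6% for Slfn5, 70.3% for Slfn8 and 49.8% for Slfn9. Slfn5 read 7.25 and 8.10, overlapping the IL-2 samples, a difference of -0.62 ± 0.34 (SE). Slfn8 read 8.28 and 8.98 and also overlapped them, as did Slfn2 and Slfn4, while both samples of Slfn1, Slfn3 and Slfn9 lay below every IL-2 sample. None of these was called in the main fit, and how many of all genes separate this way was not counted. At this dose 16 of the 18 IL-2 and STAT5 targets fell (median -1.85), Ifng fell by 3.77 on the log2 scale, and 3 of 30 interferon-stimulated genes fell (median -0.57). With only these groups and IL-2 in the fit, Slfn8 and Slfn9 were called (limma adjusted p = 0.0208 and 0.016). Beside these values, 6 macrophage and monocyte markers (mean 7.33 to 7.34), 5 neutrophil markers and 4 B cell markers were higher than with IL-2, and 8 of 10 NK markers were lower (mean 8.26 to 8.28). Their part was not tested.

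At 1 µM of the JAK3 inhibitor 4 of 6 members fell, beside 3.69% of all genes. They were Slfn1 (-1.22 ± 0.20 SE, limma adjusted p = 0.000525), Slfn8 (-1.26 ± 0.24, 0.00222), Slfn9 (-0.95 ± 0.18, 0.00196) and Slfn4 (-0.82 ± 0.19, 0.0108). Slfn1 read 7.56 and 7.44, and Slfn8 7.83 and 7.91, all below every IL-2 sample. Slfn5 read 6.32 and 6.50, a difference of -1.89 ± 0.34. Without replicate 1 the calls of Slfn4 and Slfn8 ended (limma adjusted p = 0.0653 and 0.0635), and without replicate 2 those of Slfn4 and Slfn9 (0.258 and 0.0565). Within the low set alone the difference was -1.42 for Slfn1 (adjusted p = 0.0555), -1.42 for Slfn8 (0.0845), -1.11 for Slfn9 (0.12) and -0.92 for Slfn4 (0.143), and within the high set the values were -1.01, -1.11, -0.80 and -0.73. Of the marker lists, 8 of 10 NK markers were called lower than with IL-2 (mean 8.04 to 8.26), and 6 of 13 macrophage and monocyte markers (7.30 to 7.33) and 6 of 13 neutrophil markers (8.14 to 8.47) were called higher. Their part was not tested.

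At 4 µM of the JAK3 inhibitor the same 4 genes were called lower, beside 4.5% of all genes. Slfn1 fell to 6.43 and 6.58 (-2.22 ± 0.21 SE, limma adjusted p = 7.51e-07) and Slfn8 to 7.20 and 7.39 (-1.84 ± 0.26, 6.56e-05). Slfn4 fell by 0.97 (limma adjusted p = 0.00362), a call that ended without replicate 2, and Slfn9 fell by 0.96 (0.00232). With replicate number added to the fit the Slfn9 difference was -0.65 and was not called (limma adjusted p = 0.237). Slfn5 read 5.85 and 5.08, a difference of -2.83 ± 0.36. Both samples at this dose lie in the low-intensity set. Here 6 of 10 NK markers were lower (mean 8.50 to 8.60). Of the macrophage and monocyte markers 6 were higher and 1 lower, and 4 neutrophil and 3 B cell markers were higher. Their part was not tested.

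In the main fit, Slfn1, Slfn4 and Slfn8 were also called lower with the JAK1 inhibitor at 0.25 and 1 µM, and the calls at 0.25 µM were fragile. At 0.0625 µM, with 1 sample, limma called 0 of 6 members. At an unadjusted p under 0.05 there were 0 members and 2420 of the 19752 genes, and 0.0152% of all genes were called lower and 0.00506% higher. Slfn5 read 7.19 there, below all 4 IL-2 samples, a difference of -1.11 ± 0.46 (SE). Slfn8 at 8.87, Slfn1 at 8.32, Slfn9 at 6.53 and Slfn4 at 5.86 also lay under the lowest IL-2 sample, while Slfn2 and Slfn3 did not. A single sample falls there easily, and how many of all genes did so was not counted.

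At 0.25 µM of the JAK1 inhibitor, 3 of 6 members fell, beside 1.52% of all genes. These were Slfn1 (-0.90 ± 0.20 SE, limma adjusted p = 0.0212), Slfn8 (-0.97 ± 0.24, 0.0401) and Slfn4 (-0.76 ± 0.19, 0.0444). Slfn1 read 8.07 and 7.56 and Slfn8 8.31 and 8.01, between the untreated and the IL-2 samples for both genes. Slfn5 read 5.92 and 5.56, within the range of the untreated samples, with a difference from IL-2 of -2.56 ± 0.34 and -0.9% of the IL-2 difference left, beside 50.1% for Slfn1, 42.4% for Slfn8 and 47.9% for Slfn9. Of the interferon-stimulated genes 27 of 30 fell (median -1.38), and of the IL-2 and STAT5 targets 9 of 18 (median -0.89). Ifng fell by 1.00 on the log2 scale. None of 10 NK markers was called, and 4 macrophage and monocyte markers (mean 6.71 to 6.72) and 1 neutrophil marker were higher than with IL-2.

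The 3 calls at this dose were fragile. Slfn1 lost its call without IL-2 replicate 3 (limma adjusted p = 0.0866) or its own replicate 2 (0.634). Slfn4 and Slfn8 each lost it without IL-2 replicate 2, 3 or 4, or without either sample of the dose (limma adjusted p from 0.0581 to 0.623). With the low set alone, Slfn1 differed by -1.30 (adjusted p = 0.177), Slfn8 by -1.31 (0.236) and Slfn4 by -0.54 (0.68), and with the high set alone by -0.51, -0.63 and -0.97. No member was called with each array centred on its median and no set term. All 6 were called when only the groups compared were fitted. The share of all genes called under that setting is not given, so this count is not read as a result about the members.

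At 1 µM of the JAK1 inhibitor 4 of 6 members fell, beside 2.31% of all genes. Slfn1 read 6.81 and 7.01, back at the untreated level (-1.81 ± 0.20 SE from IL-2, limma adjusted p = 6.43e-06, 0.2% of the IL-2 difference left). Slfn8 read 7.77 and 7.45 (-1.52 ± 0.24, adjusted p = 0.000416), and Slfn9 6.07 and 5.94 (-0.87 ± 0.18, 0.00503). Slfn4 fell by 0.89 (limma adjusted p = 0.00757; 0.142 without replicate 1 and 0.0684 without replicate 2). Slfn5 read 5.26 and 4.70, both below every untreated sample, a difference from IL-2 of -3.31 ± 0.34. Within the low set alone Slfn1 differed by -1.86 (limma adjusted p = 0.0136), Slfn8 by -1.88 (0.0204), Slfn9 by -1.08 (0.121) and Slfn4 by -0.75 (0.215), and within the high set by -1.76, -1.17, -0.67 and -1.03. Without replicate 2 of this dose, Slfn8 and Slfn9 lost their calls (limma adjusted p = 0.0649 and 0.202). At this dose 6 of 10 NK markers were lower than with IL-2 (mean 8.28 to 9.01), and 6 macrophage and monocyte (7.21 to 7.31), 6 neutrophil (8.13 to 8.34) and 2 B cell markers were higher, and their part was not tested.

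The single sample at 4 µM of the JAK1 inhibitor had the lowest value of the 19 for Slfn4 (5.11), Slfn5 (4.25) and Slfn8 (6.70). A single sample gives no spread of its own, so the test against IL-2 assumes that it varies like the other groups, and no replicate checks it. Under that assumption 4 of 6 members were called lower, beside 2.63% of all genes: Slfn8 (-2.44 ± 0.32 SE, limma adjusted p = 7.83e-05), Slfn1 (-2.05 ± 0.27, 7.18e-05), Slfn4 (-1.25 ± 0.26, 0.00597) and Slfn9 (-1.24 ± 0.24, 0.00373). With each array centred on its median and no set term, 2 members were called here, with limma adjusted p = 0.249 for Slfn4 and 0.097 for Slfn9. Under that setting Slfn4 lost its call at each of the 5 doses that had one (limma adjusted p from 0.094 to 0.786). Slfn5 differed by -4.04 ± 0.46. Its level lay at the 18.2 percentile of all genes here and at 29.5 with 1 µM of the JAK1 inhibitor, beside 90.5 with IL-2. Without detection values, how far these low levels stand above background is not known. In this sample the median log2 difference from IL-2 was -1.13 over 10 NK markers and 0.29 over 13 macrophage and monocyte markers. The mean over the macrophage and monocyte list was 7, above the 6.17 to 6.45 of the IL-2 samples, though single markers moved in both directions. The median was 0.67 over 13 neutrophil and 0.26 over 9 B cell markers. The part of these lists was not tested. Slfn3 and Slfn2 were not called against IL-2 at any dose of either inhibitor. Their differences lay between -0.49 and -0.09 for Slfn3 and between -0.59 and 0.27 for Slfn2.

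**Figure D3:**
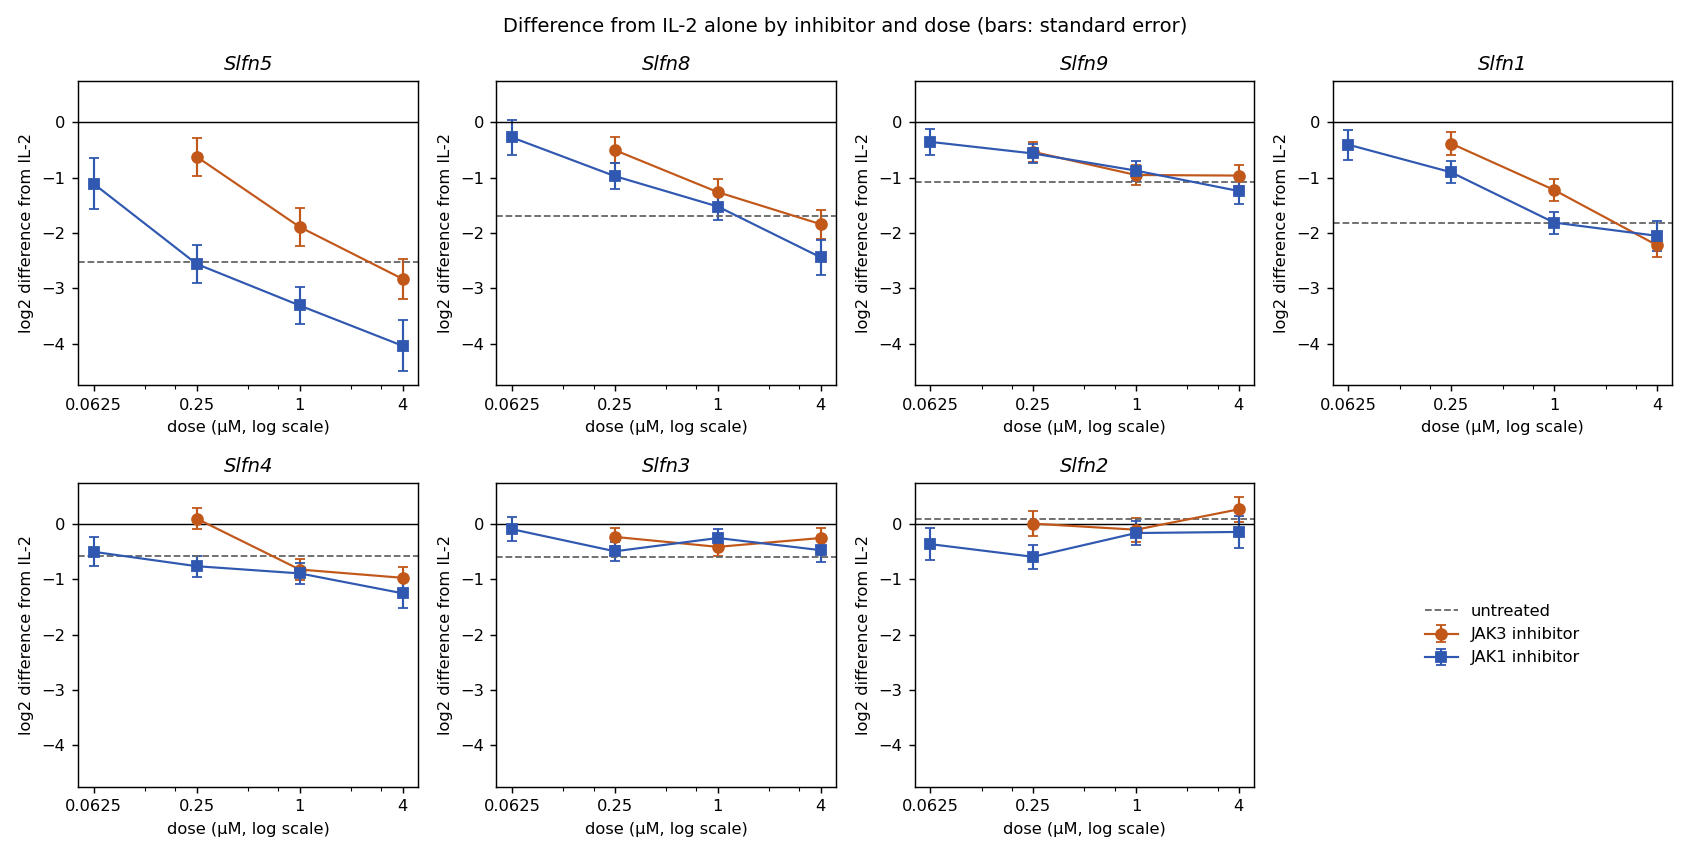
Log2 difference from IL-2 alone (y axis, bars are standard errors) against dose in µM on a log scale for the JAK3 (orange) and JAK1 (blue) inhibitor, with the untreated level as a dashed line. For Slfn5 the JAK1 values lie below the JAK3 values at each shared dose (-2.56 and -0.62 at 0.25 µM), while for Slfn9 they lie together (-0.56 and -0.53).

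Against untreated cells, limma called no Schlafen gene at 4 µM of either inhibitor, nor any gene of the array (0%), although 1714 and 1270 of all genes had an unadjusted p under 0.05 with the JAK3 and the JAK1 inhibitor. At that unadjusted level there were 0 of 6 members with the JAK3 inhibitor and 2 of 6 with the JAK1 inhibitor, Slfn4 (-0.67 ± 0.26 SE) and Slfn8 (-0.75 ± 0.33). Slfn5 differed from untreated by -0.30 ± 0.37 with the JAK3 inhibitor and by -1.51 ± 0.46 with the JAK1 inhibitor. The Slfn5 difference with the JAK3 inhibitor turned positive, up to 0.11, under 4 of 12 alternatives, and with the JAK1 inhibitor it stayed between -1.75 and -1.10.

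Across doses, the fitted slope per 4-fold step of dose was called for Slfn1 with the JAK3 inhibitor (-0.92 ± 0.12 SE, limma adjusted p = 0.00219), beside 0.137% of all genes called lower. It was called for Slfn1 (-0.59 ± 0.10, adjusted p = 0.00356) and Slfn8 (-0.71 ± 0.12, 0.00352) with the JAK1 inhibitor, beside 1.96%. The Slfn1 slope with the JAK3 inhibitor lost its call without replicate 2 of 0.25 µM (limma adjusted p = 0.475). With each array centred on its median and no set term, none of the 3 slopes was called (limma adjusted p = 0.167 for Slfn1 with the JAK3 inhibitor, and 0.137 for Slfn1 and 0.128 for Slfn8 with the JAK1 inhibitor). The JAK1 slope rests at both ends, 0.0625 and 4 µM, on single samples. The slope of Slfn5 was -1.11 ± 0.21 with the JAK3 and -0.96 ± 0.17 with the JAK1 inhibitor, over different dose ranges.

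At matched doses the inhibitors were set side by side for all 7 members at 0.25, 1 and 4 µM, which gives 21 differences, with no test because the family was noted for this contrast. For Slfn5 the JAK1 minus JAK3 difference was -1.94 ± 0.40 (log2, SE) at 0.25 µM. It was -1.43 ± 0.40 at 1 µM and -1.21 ± 0.49 at 4 µM. Within the low set the Slfn5 difference was -2.54 and -1.79 at 0.25 and 1 µM, and within the high set -1.34 and -1.06. Slfn4 differed by -0.86 ± 0.22 at 0.25 µM, where the JAK3 inhibitor samples read 6.32 and 6.61 and the JAK1 inhibitor samples 5.39 and 5.81, but by -0.07 ± 0.22 at 1 µM and -0.28 ± 0.28 at 4 µM. Slfn1 differed by -0.53 ± 0.24 and -0.59 ± 0.24 at 0.25 and 1 µM, and by 0.16 ± 0.29 at 4 µM. Slfn8 differed by -0.47 ± 0.28, -0.26 ± 0.28 and -0.60 ± 0.35 at the 3 doses in order, and Slfn3 by -0.26 ± 0.19, 0.16 ± 0.19 and -0.22 ± 0.24. For Slfn9 the differences were -0.02 ± 0.21, 0.08 ± 0.21 and -0.28 ± 0.26. For Slfn2 they were -0.60 ± 0.25, -0.06 ± 0.25 and -0.41 ± 0.30. The JAK1 inhibitor has 1 sample at 4 µM.

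The order of group means for Slfn5 was IL-2 (8.30), JAK3 inhibitor 0.25 µM (7.68), JAK1 inhibitor 0.0625 µM (7.19), JAK3 inhibitor 1 µM (6.41), untreated (5.76), JAK1 inhibitor 0.25 µM (5.74), JAK3 inhibitor 4 µM (5.47), JAK1 inhibitor 1 µM (4.98) and JAK1 inhibitor 4 µM (4.25). Neighbours in this order mostly lie within their spread, which was 0.51 (SD, n = 4) for IL-2, 0.71 (n = 3) for untreated and 0.60 (n = 2) for JAK3 inhibitor 0.25 µM. For Slfn9 the order began with IL-2 (6.88), JAK1 inhibitor 0.0625 µM (6.53), JAK3 inhibitor 0.25 µM (6.34) and JAK1 inhibitor 0.25 µM (6.32), and all other groups lay between 5.64 and 6.00.

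**Figure D4:**
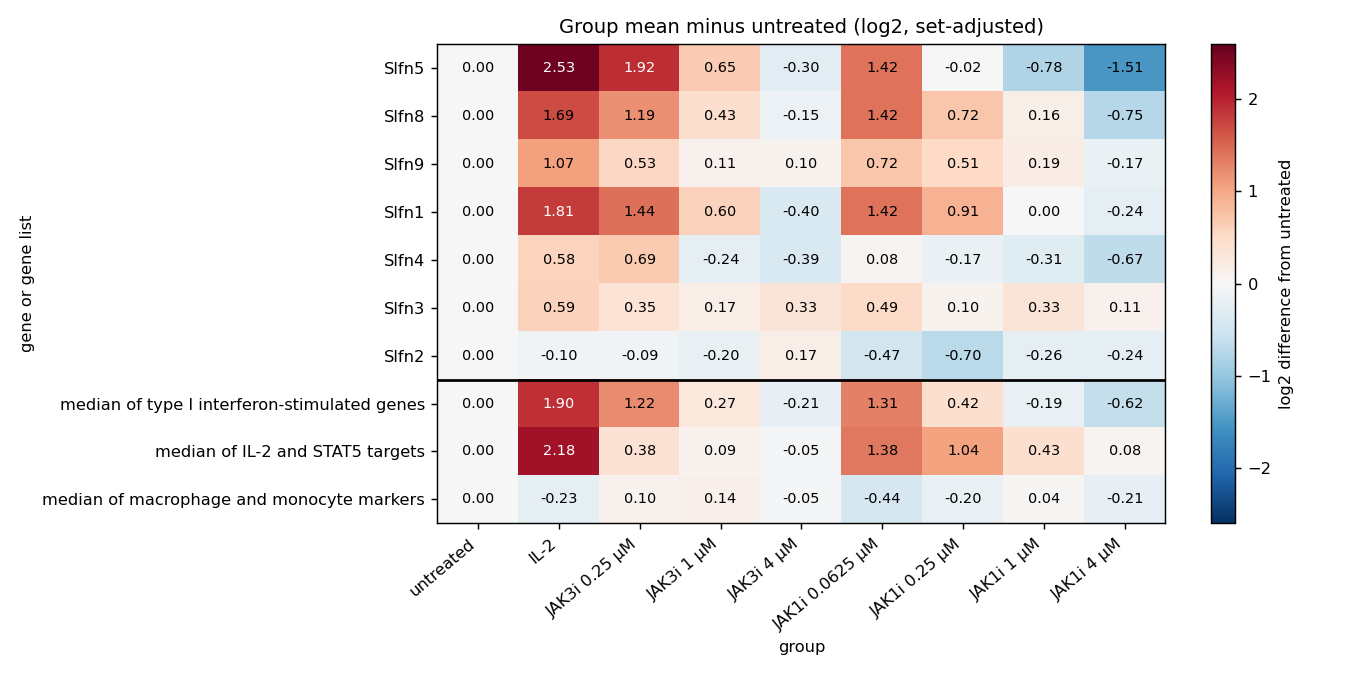
Group mean minus the untreated mean (log2, colour and printed value) for the 7 Schlafen genes and, below the line, the median of 3 gene lists in each group. With 0.25 µM JAK3 inhibitor Slfn5 stands at 1.92 and the IL-2 and STAT5 targets at 0.38, and with 0.25 µM JAK1 inhibitor they stand at -0.02 and 1.04.

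Across the 9 group means, r between pairs of Slfn1, Slfn4, Slfn5, Slfn8 and Slfn9 ran from 0.78 (Slfn4 and Slfn9) to 0.96 (Pearson r, a description, since the groups share samples of the same experiment). The highest r was 0.96 between Slfn1 and Slfn8, then 0.95 between Slfn8 and Slfn9 and 0.93 between Slfn5 and Slfn8. Slfn4 had r of 0.92 with Slfn5 and 0.85 with Slfn8. Slfn3 had r from 0.55 (Slfn4) to 0.77 (Slfn9) with these 5 genes, and Slfn2 had r from -0.35 to 0.11 with every other member.

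Set against list means over the 9 groups, Slfn5 had r of 0.97 with the interferon-stimulated genes and 0.64 with the IL-2 and STAT5 targets, and Slfn9 had 0.94 and 0.92. For Slfn1 these were 0.97 and 0.81, for Slfn8 0.98 and 0.82, and for Slfn4 0.90 and 0.53. With the macrophage and monocyte markers, r lay from -0.75 (Slfn9) to -0.29 (Slfn4) for the members that rose and was 0.42 for Slfn2.

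Among the 1161 genes whose group means spanned at least 1 log2 unit, the 5 with the highest r over the 9 groups differed between members. They were picked as the highest of many over 9 points, and the r that such picking gives by itself was not computed. For Slfn5 they were Ifih1 (0.993), a cytosolic RNA sensor, Oas2, Ifi27l2a, Irf7 and Ifi214. For Slfn8 they were Dhx58 (0.993), Parp14, Rnf213, Trim30d and H2-T24, and for Slfn1 Lgals3bp (0.985), H2-T24, Parp10, Dtx3l and Ddx58. Slfn9 came with Irf1 (0.996), a transcription factor induced by interferon gamma, and with Gbp7, Psme1, Gbp3 and Irgm1. For Slfn4 they were Ifi27l2a (0.959), Ddx60, Mx2, Kdr and Tapbp. The nearest genes of Slfn3 were Ehd4 (0.936), Sdf2l1, Snord96a, Selenow and Mthfd1l, and those of Slfn2 were F630048H11Rik (0.895), Rps7, Malat1, 5031425E22Rik and Pfdn5. The group means of Slfn3 and Slfn2 spanned only 0.59 and 0.87.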

How the data were processed

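RNA of 19 samples was measured on Affymetrix Mouse Gene ST arrays. Per the submitters' processing notes, the authors made the deposited intensity values with RMA in Affymetrix Power Tools. Versions are not stated. These linear values were turned into log2 here. Of 24922 probe sets, 21425 had 1 symbol in the platform annotation and were used (1399 had several and 2098 none in that table), and the brightest by mean stood for each of 19752 genes. Depth has no meaning for arrays, and their number limits the precision.

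A model with a mean per group and a term for the intensity set was fitted over all samples with limma 3.58.1 (R 4.3.3, lmFit and eBayes with an intensity trend, 9 residual and 10.5 prior degrees of freedom), with Benjamini-Hochberg adjustment over all genes of a comparison. The calculation was checked on data simulated from the same model, with changes set only in the IL-2 group. Such a check cannot tell whether the model suits these samples. The members, gene lists and tests were chosen with earlier results of these data known. Genes named are all members and relatives, the leading genes of each list by p, the 5 genes most like each member and 3 neighbours on each side of the cluster. Promoter sequences are from RefSeq (GRCm38.p6), and windows were aligned with Biopython 1.88 (global alignment). Alternatives were another normalization, no set term, the mean of probe sets, a filter on dim genes, fewer groups, a replicate block, each set alone, and leaving out each sample.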

Additional observations from a re-analysis of the deposited data

Results flagged for a closer look

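In the IL-2 group 3 of the 7 genes had 1 sample far from the other 3, judged by its gap to the nearest sample as a share of the group's range (Dixon's 95% criterion). Slfn1 was high in replicate 3 (9.12 log2, gap share 0.892), and so was Slfn9 in the same sample (7.27, gap share 0.881). Slfn2 was low in replicate 1 (8.38, gap share 0.866). Chance flags about 1 in 20 groups.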

How the results depend on the processing

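Of the member values, 711 of 784 recomputed under another setting and 459 of 497 with 1 sample left out counted as the same. Tested values had to keep their side of the threshold, and untested ones to move within the spread between replicates. A change of sign was not counted as a reversal where neither fit called a tested value, or where an untested value lay within that spread. Such changes occurred, as for Slfn2 in IL-2 minus untreated (3 of 15 alternatives) and for the JAK3 slope of Slfn3 (5 of 11). The 1 reversal counted was Slfn8 between the inhibitors at 0.25 µM, 0.02 within the high-intensity set beside -0.47. Counts of called members that moved are as follows. No share of all genes is given beside them, so they are not read as results about the members. Within the high set, where few samples limit any call, 0 were called for IL-2 minus untreated, for the JAK3 inhibitor at 1 µM and for the JAK1 inhibitor at 0.25 and 1 µM. Within the low set the counts were 0 for the JAK3 inhibitor at 1 µM, 0 and 2 for the JAK1 inhibitor at 0.25 and 1 µM, and 1 for the JAK1 slope. With median centring and no set term they were 0 for the JAK1 inhibitor at 0.25 µM, 2 at 4 µM and 0 for both slopes. With only the compared groups fitted they were 2 for the JAK3 inhibitor at 0.25 µM, 6 for the JAK1 inhibitor at 0.25 µM and 4 for the JAK1 slope. Quantile normalization gave 2 for the JAK3 slope. With 1 sample left out the counts ranged from 2 to 4 (JAK3 inhibitor 1 µM), 0 to 4 (JAK1 inhibitor 0.25 µM), 1 to 4 (JAK1 inhibitor 1 µM) and 0 to 2 (JAK3 slope). The cause was not tested.

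Samples share only a replicate number: the correlation of deviations ran from -0.54 to 0.70 over 38 same-numbered pairs (median -0.01) and from -0.81 to 0.54 over 84 others. With the replicate block, 0 members were called for the JAK1 inhibitor at 0.25 µM, Slfn9 was not called with the JAK3 inhibitor at 4 µM (-0.65, limma adjusted p = 0.237), and the Slfn9 slope with the JAK1 inhibitor was (-0.39, 0.0136). The block changed no other call. With it, 134 of the 19752 genes were called in either direction for the JAK1 inhibitor at 0.25 µM. Arrays carry no detection values here, so signal over background is not given.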
